A study of Mus musculus with 8 samples.

Results

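The effect of the Carm1 knockout in elongating spermatids was measured across 15685 of the 16349 genes in the table, those with a normalized value of at least 10 in at least 2 of the study's 8 libraries. The members are all of these genes, and the filter used their levels and no fold change. The choice was made with earlier results of these data known. The effect is the contrast of 2 libraries labelled conditional knockout (KO) with 2 WT libraries, so 4 of the 8 libraries carry it. The other 4 are round spermatids of the same genotypes, used for one comparison. All libraries came from untreated C57BL/6 mice, and each was made from spermatids pooled from 8 testes and separated by centrifugal elutriation, which sorts cells by size. The poly A libraries were prepared with an unstranded kit. The labels give the genotype as cKO. No label used here names the Cre driver, the deleted exons or the animals' age. Whether a group's 2 libraries are from different mice is not stated, so the p-values reflect the spread of these libraries alone, which could be technical.

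Elongating spermatids are haploid male germ cells that compact the nucleus, assemble the sperm tail and shed cytoplasm. Transcription declines as histones give way to transition proteins and then protamines, and much of the later protein synthesis draws on stored messenger RNA. CARM1 is a protein arginine methyltransferase known as a coactivator of transcription, and the study's title places it on an axis with p300, ACT (the product of Fhl5) and CREM, the activator of many genes switched on after meiosis. The contrast asks which genes differ at this stage when Carm1 is deleted.

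The elongating libraries held 21090436 to 23526694 recovered reads, against 17190962 to 20720496 in the round ones. A value below is the read count of a gene divided by the size factor that the authors gave the library, so levels are not per length and are not ranked between genes for their size. Recovered size factors were 0.7757 and 0.6935 for WT, 0.5156 and 0.5305 for KO-labelled elongating and 1.572 to 1.775 for round libraries. A gene rose or fell when limma, fitted to log2(value + 1) over all genes and libraries, gave a Benjamini-Hochberg adjusted p under 0.05. The fit shares one estimate of the spread between stages. Fold changes are log2, KO-labelled over WT. All 20 markers of elongating spermatids measured at least 100 in WT cells and summed to 14.6% of the reads of each WT library and 16.7% and 16.5% of those of the KO-labelled libraries.

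Carm1 itself (chromosome 9, 21546894 to 21592623, plus strand, GRCm38) measured 4308 and 4534 in the WT libraries and 8157 and 7993 in the KO-labelled libraries. The groups did not overlap, and the KO-labelled libraries were the higher ones. The log2 fold change was 0.87 (SE 0.053, adjusted p = 2.7e-09), and 0.31 with total-read scaling. In round spermatids Carm1 went the other way, from 1668 ± 26.2 (SD, n = 2) to 1259 ± 119 (SD, n = 2). The table counts whole genes, and the deleted exons are not known here, so this level checks neither the deletion nor the protein. Because the label could not be checked from this level, the libraries are called KO-labelled throughout. Carm1 overlaps Yipf2, and without strand the reads of the overlap cannot be told apart. Of the 78 tested genes within 5 Mb of Carm1, 16 rose (20.5%) and 27 fell (34.6%).

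Of all tested genes, 4279 rose (27.3%) and 4348 fell (27.7%), together 55% of the 15685. The 2 KO-labelled libraries lay on 1 side of both WT libraries in 4276 of the rises and 4321 of the falls. The balance depends on the scaling. The median gene stood at -0.07 as deposited, at -0.61 with total-read scaling and at -0.56 when the 50 most abundant genes were left out of the library size. With total-read scaling 1394 genes rose (8.89%) and 9854 fell (62.8%). Of the 4348 falls, 4347 were also called lower under both other scalings. Of the 4279 rises, 1394 were also called higher under both, and 1131 were called lower with total-read scaling. Calls that held under all 3 scalings with no overlap of libraries came to 1394 rises (8.89%) and 4320 falls (27.5%), and these are called steady below. Changes over 2-fold as deposited took 6.08% of genes upward and 6.68% downward. Steady changes over 2-fold numbered 749 rises (4.78%) and 1038 falls (6.62%). In bulk RNA of this kind, fewer cells of a type and less RNA per cell cannot be told apart.

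**Figure D1:**
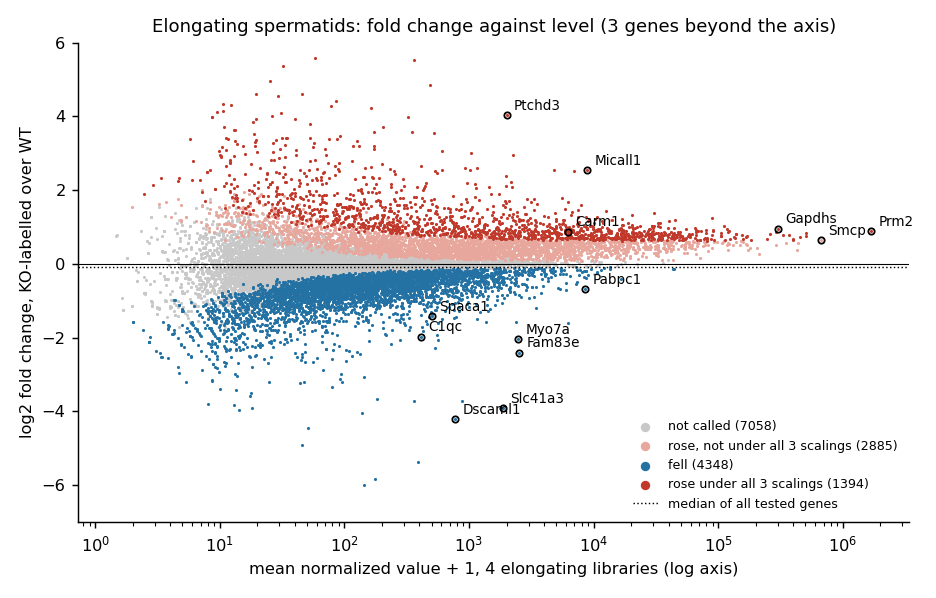
Log2 fold change of KO-labelled over WT elongating spermatids (vertical axis) against the mean normalized value plus 1 over the 4 elongating libraries (horizontal log axis), 1 point per tested gene. Falls (blue) spread over the low and middle levels, while the right end of the plot holds almost only rises, many of them not kept under all 3 scalings (pale red).

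The direction of change followed the level of the gene. Of the 246 genes with a mean of at least 30000 over the 4 elongating libraries, 98.4% rose and 0.813% fell, with a median of 0.65. Of the 377 genes between 10000 and 30000, 95.2% rose. Between 300 and 1000 the shares were equal within a point, at 36% and 35.7%, and the median was 0.00. Of the 3997 genes between 30 and 100, 11.8% rose and 30.5% fell, with a median of -0.25. The gradient over level was also present with total-read scaling, at medians of 0.08 in the top class and -0.79 between 30 and 100. In round spermatids the medians in the same classes lay between -0.03 and 0.10. The top class of 246 genes took 57.6% of the reads in each WT library and 61.8% in each KO-labelled library.

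**Figure D2:**
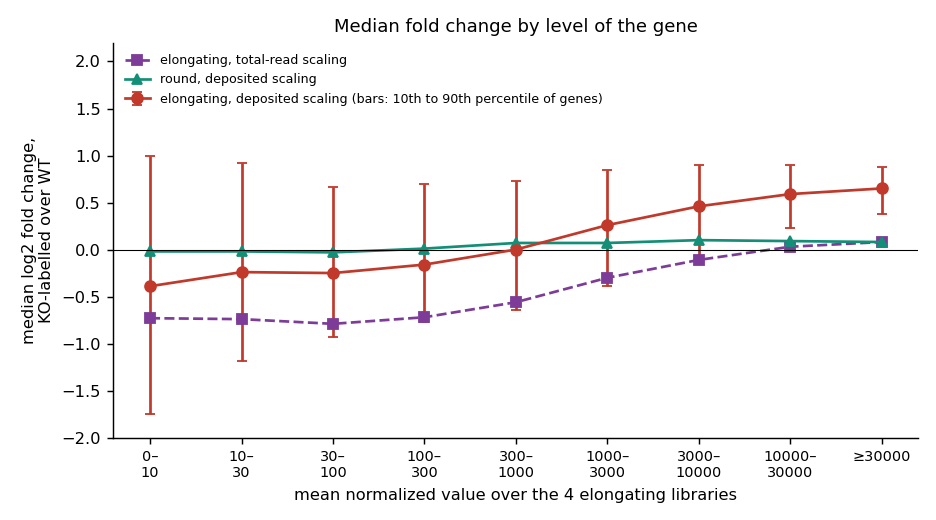
Median log2 fold change of KO-labelled over WT (vertical axis) for genes grouped by mean normalized value over the 4 elongating libraries (horizontal axis). The elongating medians climb from -0.39 in the lowest class to 0.65 in the highest as deposited and from -0.73 to 0.08 with total-read scaling, whereas the round medians stay near 0.

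The 12 genes with the most reads in elongating WT cells included known products of late spermiogenesis, and all 12 rose as deposited. Prm2, which encodes a protamine that packs sperm DNA, measured 1178034 and 1188677 in WT against 2215306 and 2162873 in KO-labelled libraries, a change of 0.89 (SE 0.023, adjusted p = 7.8e-13). Its share of the library went from 3.9% and 3.91% to 4.9% and 4.88%. Both KO-labelled libraries were well above both WT libraries on either measure. Tnp2, a transition protein, rose by 0.85, and Prm1, the other main protamine, by 0.78. Odf2, a protein of the outer dense fibres of the tail, rose by 0.75, and Akap12, an anchor for protein kinase A, by 0.74. Reep6, an endoplasmic reticulum protein, rose by 0.79. These 6 genes were steady, as were Gsg1 at 0.65 and 4933411K16Rik at 0.67. Gsg1 and 4933411K16Rik overlap other genes.

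The other four of these 12 were not steady. Smcp, a protein of the mitochondrial capsule in the midpiece, rose by 0.65 as deposited and stood at 0.08 with total-read scaling (adjusted p = 0.12). Tcp11 rose by 0.57 and stood at 0.01. Hk1, hexokinase, rose by 0.56 as deposited and stood at -0.00 with total-read scaling. Oaz3, the antizyme made in the spermatid, rose by 0.38 as deposited but took a smaller share of reads, 1.09% and 1.06% against 1.21% and 1.23%, and was called lower with total-read scaling at -0.18. Oaz3 overlaps Mrpl9 and Tdrkh.

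CREM binds the cAMP response element, whose full form is TGACGTCA. The 100 bases before the RefSeq start of 8 genes with large read counts are given here (RefSeq, GRCm38.p6), because they show how near variants of that element lie to the starts of genes that rose. Capitals mark each match to TGANNTCA, an 8-base outline that reads the same on both strands and includes the full form.
Prm1 (chr16:10796824-10796923, minus strand): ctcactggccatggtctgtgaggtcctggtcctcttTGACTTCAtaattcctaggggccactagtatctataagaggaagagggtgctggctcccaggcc
Tnp1 (chr1:73015900-73015999, minus strand): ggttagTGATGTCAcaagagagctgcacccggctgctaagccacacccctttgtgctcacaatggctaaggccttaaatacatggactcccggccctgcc
Gapdhs (chr7:30743682-30743781, minus strand): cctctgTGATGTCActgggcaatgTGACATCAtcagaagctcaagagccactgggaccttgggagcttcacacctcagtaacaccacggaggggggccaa
Akap4 (chrX:7067415-7067514, plus strand): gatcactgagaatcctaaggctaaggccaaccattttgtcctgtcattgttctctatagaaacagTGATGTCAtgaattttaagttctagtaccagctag
Gsg1 (chr6:135254337-135254436, minus strand): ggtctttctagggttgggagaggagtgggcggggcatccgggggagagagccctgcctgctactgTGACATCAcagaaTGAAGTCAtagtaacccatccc
Hk1 (chr10:62379909-62380008, minus strand): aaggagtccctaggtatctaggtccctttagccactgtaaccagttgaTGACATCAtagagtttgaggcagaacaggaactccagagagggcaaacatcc
Prm2 (chr16:10792106-10792205, minus strand): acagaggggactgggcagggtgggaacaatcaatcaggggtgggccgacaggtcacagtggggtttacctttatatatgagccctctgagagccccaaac
Tnp2 (chr16:10788656-10788755, minus strand): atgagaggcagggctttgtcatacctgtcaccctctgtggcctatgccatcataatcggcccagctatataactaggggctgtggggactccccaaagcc

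The first base of the match lay at -64 in Prm1, -94 in Tnp1, -94 and -76 in Gapdhs, -35 in Akap4, -35 and -22 in Gsg1 and -52 in Hk1, counted from the start. None of the 8 stretches held the full form, and the stretches of Prm2 and Tnp2 held no match to the outline. The 8 genes were picked after their values and sequences were seen. Within 250 bases before the start, 11.9% of the 32851 promoters in the table held the outline and 1.55% the full form. The shares of genes that follow count a gene when any of its promoters held a match. They are therefore to be read against the share of all tested genes and not against the share of promoters. Among genes with a mean of at least 30000 that had a promoter in the table (205 of 246), 29.8% held the outline and 5.37% the full form. Of the 12507 tested genes with a promoter in the table (79.7% of 15685), 12.5% held the outline and 2.85% the full form. The outline stood in 14.8% of rises, 16% of steady rises, 12.2% of falls and 11.2% of genes not called, and the full form in 3.21%, 2.36%, 3.05% and 2.51%. These shares were not tested against each other and leave out the tested genes without a promoter. The share with the outline also differed with level, at 11.6% of genes with a mean under 1000. A match is a run of letters and was not tested for binding.

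Genes with the largest rises formed no single family. Among steady genes with a mean of at least 1000 in the higher group, Ptchd3, a patched-domain protein of sperm, had the largest, from 244.9 and 213.4 in WT to 3760 and 3793 in KO-labelled libraries. The means differed 16.5-fold, or by 4.04 on the log2 scale (SE 0.061, adjusted p = 3.4e-15). In round spermatids the means of Ptchd3 were 284 in WT and 5631 in KO-labelled cells. Micall1, an endosomal adaptor, measured 2561 and 2639 in WT against 14949 and 15457 in KO-labelled libraries, 5.85-fold in mean value, and overlaps 1700088E04Rik. Kif1a, a kinesin that carries vesicles, went from 2026 and 2146 to 12003 and 11869. Kcnab2, a potassium channel subunit, went from 522.1 and 510.5 to 3956 and 4038 and overlaps Nphp4. For each of these genes the KO-labelled libraries were several times above WT and close to each other.

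The other eight rises of this class ran from 2.38 to 3.06. Fosb, an immediate early transcription factor, measured 300.4 and 361.9 in WT against 2009 and 1976 in KO-labelled libraries (2.59, SE 0.099). Arhgap8, a GTPase activator, stood at 3.06, Cd3d, a subunit of the T cell receptor complex, at 2.59, Osmr, the receptor of oncostatin M, at 2.55, and Col16a1, a collagen, at 2.38. Eno1b, at 2.55, is a near copy of the enolase gene Eno1 and its reads are uncertain for that reason. Lmtk3, a kinase, at 2.55 overlaps Sult2b1, and 4930413F20Rik, at 3.01, is annotated as antisense and overlaps Nipal2.

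**Figure D3:**
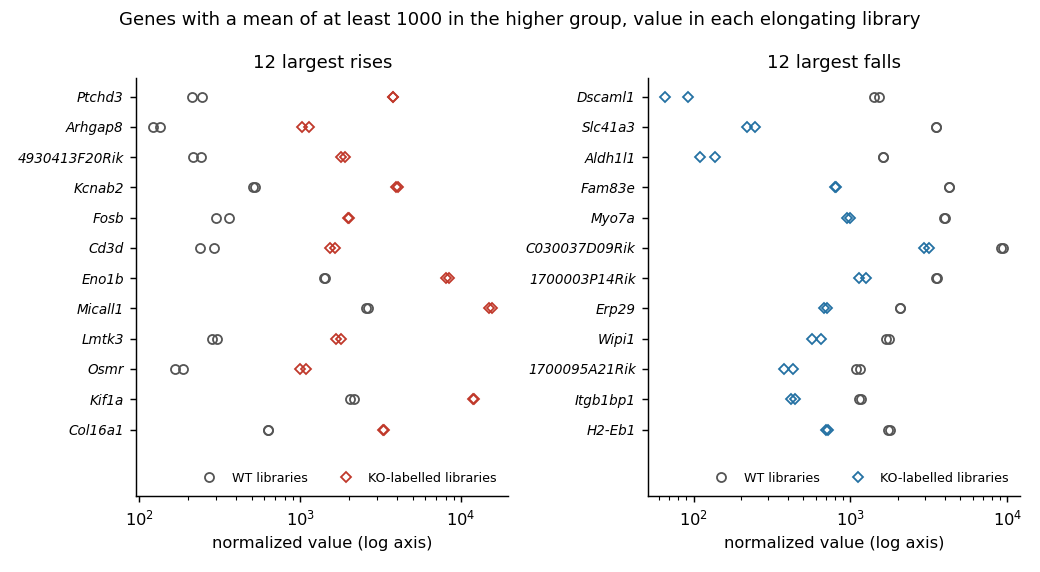
Normalized value (horizontal log axis) in each of the 2 WT (circles) and 2 KO-labelled (diamonds) elongating libraries for the 12 largest rises and 12 largest falls among steady genes with a mean of at least 1000 in the higher group. In all 24 genes the groups are separated, and the distance within a group is small beside the distance between groups.

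Among the largest falls, Dscaml1, a cell adhesion protein, measured 1419 and 1521 in WT against 65.94 and 92.37 in KO-labelled libraries, an 18.6-fold difference (-4.22, SE 0.16, adjusted p = 1.6e-11). Slc41a3, a magnesium transporter, measured 3506 and 3519 in WT against 246.3 and 218.7 in KO-labelled libraries, a 15.1-fold difference. Aldh1l1, an enzyme of folate metabolism, measured 1622 and 1609 in WT against 137.7 and 109.3 in KO-labelled libraries, a 13.1-fold difference. For all 3 genes both KO-labelled libraries lay far below both WT libraries. Aldh1l1 and Slc41a3 are next to each other on chromosome 6 (90486427 to 90600203 and 90604725 to 90646412, GRCm38, both plus strand). In round spermatids Aldh1l1 went from 898 to 11.2 and Slc41a3 from 2478 to 684.

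The remaining falls of that class ran from -1.30 to -2.41. Fam83e went from 4248 and 4280 to 804.8 and 799.3, but overlaps Spaca4, an acrosomal gene. Myo7a, an unconventional myosin, went from 4032 and 3954 to 956.1 and 987.8. C030037D09Rik, annotated as a lincRNA, went from 9113 and 9457 to 3184 and 2954, and another lincRNA, 1700003P14Rik, fell by 1.57. Wipi1, a protein of autophagosome formation, was 2.83-fold lower in mean value. Erp29, a chaperone of the endoplasmic reticulum, fell by 1.57 and overlaps Naa25 and Tmem116. Itgb1bp1, an integrin regulator, fell by 1.43 and overlaps Asap2 and Cpsf3. The antisense gene 1700095A21Rik fell by 1.47 and overlaps Gm13247, and H2-Eb1, an MHC class II chain, fell by 1.30.

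Measured by the difference in value, Pabpc1, the cytoplasmic poly(A)-binding protein and a known substrate of CARM1, was among the leading falls, from 10450 and 10537 to 6594 and 6498 (-0.68, SE 0.027). Ybx1, an RNA-binding protein that packages messenger RNA, went from 18828 and 19098 to 14809 and 13539 (-0.42). Nup98, a nucleoporin, and Hspb9, a testis small heat shock protein, fell by 0.13 each. They were the 2 genes with a mean of at least 30000 that fell as deposited, and neither call was kept without the variance trend (adjusted p = 0.094 and 0.12).

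Some changes left almost no reads in a group. The lincRNA 1700063D05Rik had 1287 reads over the 2 WT libraries and 0 over the 2 KO-labelled libraries. Set against a floor of 3 reads over the group, it was at least 305-fold lower. That floor is a one-sided limit, and the two-sided exact 95% interval of the read ratio begins lower, at 248. Both cover counting error only. Gm21276 measured 300.4 and 265.3 in WT against 5.818 and 1.885 in KO-labelled libraries. In the other direction Slc26a10, an anion transporter gene that overlaps B4galnt1, went from 12.89 and 15.86 to 694.3 and 714.5. The lincRNA 1700024I08Rik went from 32.23 and 30.28 to 950.3 and 925.6. By annotation, steady changes over 2-fold took 22.4% of lincRNA genes and 10.7% of protein-coding genes. By chromosome that share ran from 7.33% on chromosome 8 to 15.3% on chromosome 13, leaving aside the Y with 14 genes.

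Gene lists were read against all tested genes (27.3% rose, 27.7% fell, median -0.07) and against level. At a mean of at least 1000, 75% of 2644 genes rose and 13% fell. Below it, 17.6% of 13041 genes rose and 30.7% fell. More members rose than fell in 28 of the 56 lists. With total-read scaling only 2 lists kept more rises than falls, the elongating spermatid markers (11 and 5) and the immediate early genes (16 and 14). Members named beyond the fixed rule, such as Tnp1, Hils1, Acr and Egr1, were chosen for their known role after their values were seen. Where another gene overlaps, reads of the pair cannot be told apart without strand. Besides the overlaps given beside a value, this holds for Hist3h2a, Ccdc122, Fxr1, Mrpl47, Izumo1, Acrbp, Zpbp, Timm8b, Iars2, Kif20a, Ccna1, Gsk3a, Eif3m, Cox6c, Srebf1, Snrpf and Csf1r.

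**Figure D4:**
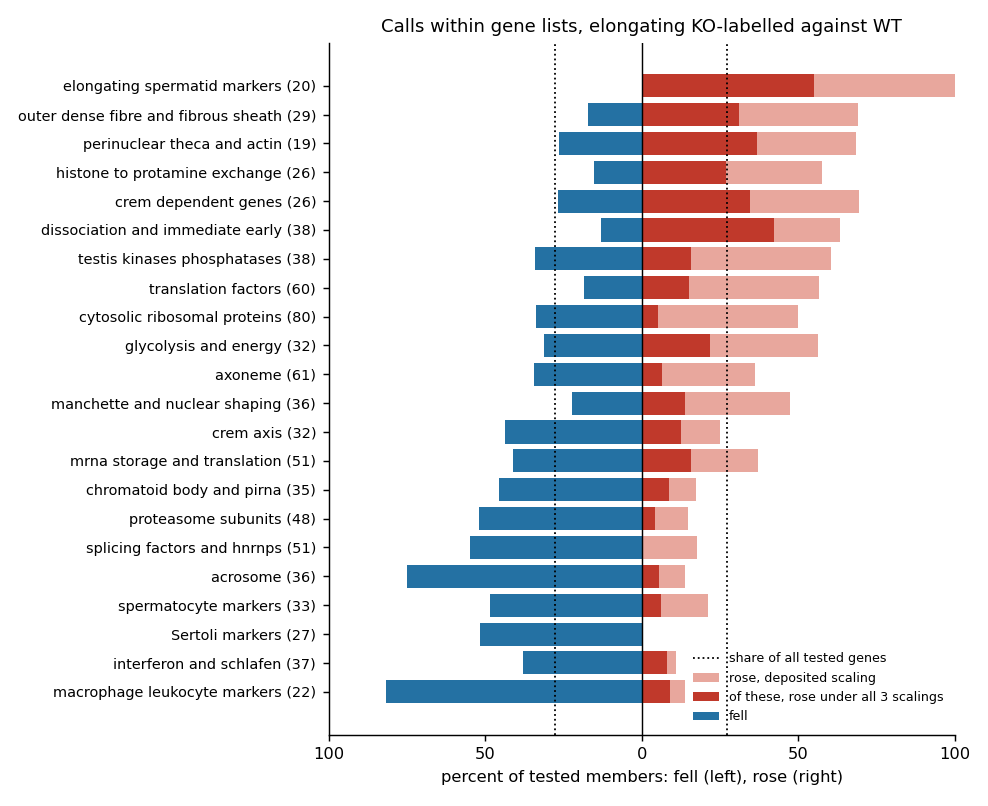
Share of the tested members (number in brackets) of 22 gene lists that rose (right) or fell (left) in KO-labelled against WT elongating spermatids, with dotted lines at the share of all tested genes. Bars of the late spermatid lists extend to the right, with steady rises in dark red, and bars of the acrosome, splicing, proteasome and macrophage lists extend to the left.

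Of 26 genes that act in replacing histones by protamines, 15 rose, 7 of them under all 3 scalings, and 4 fell. All 15 rises were among its 17 members with a mean of at least 1000, a level at which 75% of all genes rose, and with total-read scaling the median of these 17 was -0.06. Tnp1 rose by 0.81 from 188678 and 188073 to 339997 and 321575, and Prm3, an acidic protein encoded near the protamines, rose by 0.75. Of the spermatid linker histones, Hils1 measured 14459 and 14347 against 16112 and 15949, a rise of 0.15 that became a fall of 0.41 with total-read scaling. H1fnt rose by 0.30 and fell by 0.26 with total-read scaling. Hils1 overlaps Sgca and Tnp1 overlaps 1700027A15Rik. Psme4, the activator of the proteasome that degrades acetylated histones, rose by 0.82.

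Of the 19 genes of the perinuclear theca, the protein shell of the sperm nucleus, and its actin-related proteins, 13 rose, 7 of them steadily, and 5 fell (3 without WT library 2). Actrt1 went from 1263 and 1268 to 3303 and 3203 (1.36), Actrt2 rose by 0.96 and the cylicin Cylc2 by 0.94. Another list joined genes of nuclear shaping with those of the manchette, the microtubule skirt that shapes the nucleus. Of its 36 genes, 17 rose, 5 of them steadily, and 8 fell, fewer when WT library 2 or either round WT library was left out. Kif27, a kinesin, rose by 1.00, whereas Katnal2, a katanin subunit, fell by 1.00 and Fam209 fell by 1.17 from 764.4 and 772.9 to 356.8 and 326.1.

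Tail genes held both rises and falls. Of 29 genes of the outer dense fibres and fibrous sheath, 20 rose, 9 of them steadily, and 5 fell. Akap4, the main protein of the fibrous sheath, measured 200875 and 207458 in WT against 384690 and 364376 in KO-labelled libraries (0.88). Odf3b rose by 1.42, Fsip1 fell by 1.14, and Cabyr, a calcium-binding sheath protein, rose by 0.29 as deposited and fell by 0.27 with total-read scaling. Of 61 axoneme genes, 22 rose, 4 of them steadily, and 21 fell, with Nme8 at 0.95, Cfap53 at -0.92 and Rsph14, a radial spoke gene that overlaps Gnaz, at -1.57. Of 32 genes of the sperm mitochondria and their sheath, 15 rose, 2 of them steadily, and 11 fell. Glul, glutamine synthetase, rose by 0.79, while Phb and Timm8b fell by 0.71 and 0.73. Gpx4, a selenoenzyme of the sheath, rose by 0.16 and fell by 0.41 with total-read scaling.

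Of 32 genes of glycolysis and energy supply, 18 rose, 7 of them steadily, and 10 fell (6 without WT library 2). Gapdhs, the sperm form of glyceraldehyde-3-phosphate dehydrogenase that is bound to the fibrous sheath, measured 202168 and 205031 in WT against 396096 and 393001 in KO-labelled libraries (0.95, SE 0.029). Pgk2, phosphoglycerate kinase of the germ line, rose by 0.67. Ldhc, the sperm lactate dehydrogenase, stood at 0.11 as deposited (adjusted p = 0.017), a call lost without WT library 1 or 2 or KO-labelled library 1 (adjusted p of 0.089, 0.097 and 0.17), and fell by 0.45 with total-read scaling. Among 32 ion channel and transport genes, 10 rose, 4 of them steadily, and 14 fell. Atp1a4, the sodium pump of sperm, went from 52784 and 52495 to 125004 and 123800 (1.24), and Catsperg2, an auxiliary subunit of the CatSper calcium channel, from 841.8 and 842.1 to 3576 and 3567 (2.08). The pore subunits Catsper1 and Catsper2 fell by 0.35 and 0.90, and Catsper2 overlaps Pdia3. Of 38 testis kinases and phosphatases, 23 rose, 6 of them steadily, and 13 fell, with Cdk16 at 1.04, Aurkc at 1.06 and Gsk3a at -1.06.

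Acrosome genes mostly fell. Of 36 tested genes of this secretory vesicle, 27 fell and 5 rose, 2 of them steadily, with a median of -0.38. Among its 10 members with a mean of at least 1000, 6 fell and 4 rose, where 13% of all genes at that level fell. Spaca1, a membrane protein of the acrosome, measured 737.4 and 726.8 in WT against 273.5 and 271.5 in KO-labelled libraries (-1.42, SE 0.056). Spaca3 went from 608.5 and 615.7 to 252.1 and 269.6 (-1.23). The protease Acr fell by 0.63, Zpbp, a zona-binding protein, by 0.70 and Acrbp, the binding protein of the acrosin precursor, by 0.22. Izumo1, the sperm ligand for egg fusion, stood at -0.05 (adjusted p = 0.39). Tmem95, another fusion protein, rose by 1.43. In round spermatids 19 of the 36 rose and 0 fell, beside 19.4% and 12.6% of all tested genes. The difference between stages was called for 31 of the 36, beside 36.9% of all tested genes. For the round falls limma had 3 genes at an unadjusted p under 0.05, edgeR called 4 and DESeq2 called 0.

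Around the axis in the study's title, no common direction was seen. Of 32 genes of the CREM axis, 8 rose, 4 of them steadily, and 14 fell. Crem measured 3050 and 3063 in WT against 4728 and 4834 in KO-labelled libraries (0.65), and stood at 0.08 with total-read scaling (adjusted p = 0.048). Fhl5, which encodes ACT, went from 5083 and 5098 to 4616 and 4232 (-0.20), and Ep300, which encodes p300, from 478.3 and 506.2 to 368.5 and 375.2 (-0.40). Crtc2, a coactivator of CREB family factors, rose by 1.03, and the general factors Gtf2a2 and Tbpl1 fell by 0.85 each. Tbpl1 overlaps Slc2a12. Of 26 genes known to depend on CREM, 18 rose, 9 of them steadily, and 7 fell. All 18 rises were among the 20 members with a mean of at least 1000. Hspa1l, a testis heat shock protein, went from 73167 and 72953 to 150885 and 147540 (1.03).

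Of 14 arginine methyltransferases and their partners, 5 rose, 2 of them steadily, and 3 fell, with Prmt1 at -0.92 and Ndufaf7 at -0.99. Of 32 partners and substrates of CARM1, 6 rose, 1 of them steadily, and 13 fell. Elavl4, an RNA-binding protein, rose by 1.02 and Snrpc, a spliceosome protein, fell by 0.78. Of 40 spermatid transcription regulators, 19 rose, 6 of them steadily, and 8 fell. Rfx2 and Sox30, regulators of genes of round spermatids and cilia, rose by 0.80 and 0.78.

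RNA storage and translation showed mixed directions. Of 51 genes of messenger RNA storage and its control, 19 rose, 8 of them steadily, and 21 fell. Ybx2, the germ-cell Y-box protein, rose by 0.70 and Fxr1 by 0.90, against the fall of Ybx1 above. Of 35 chromatoid body and piRNA genes, 6 rose, 3 of them steadily, and 16 fell. Tdrd6 fell by 0.73, Piwil1 by 0.56, Ddx4 by 0.36 and Gtsf1l by 0.91, while Smg6, a nuclease of RNA decay that overlaps Srr, rose by 1.06. Of 60 translation factors, 34 rose, 9 of them steadily, and 11 fell. Elongation factors Eef2 and Eef1a1 rose by 0.70 and 0.67, and Eif4ebp1, a repressor of initiation, by 1.10, while the initiation subunits Eif3i and Eif3m fell by 1.38 and 1.07.

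Of 80 cytosolic ribosomal proteins, 40 rose, 4 of them steadily, and 27 fell. Of the 58 with a mean of at least 1000, 39 rose and 8 fell. Of the 22 below that level, 1 rose and 19 fell. Rps14 was an exception among the abundant ones, from 2047 and 2039 to 890.2 and 861.5, but it overlaps Ndst1. Several ribosomal protein genes have near-identical copies, so their reads are uncertain. Of 77 mitochondrial ribosomal proteins, 13 rose, 2 of them steadily, and 22 fell, with Mrpl47 at 0.78, Mrpl39 at -0.76 and Mrpl53 at -0.65. Of 79 genes of the respiratory chain and ATP synthase, 19 rose, 2 of them steadily, and 29 fell, with Ndufs8 at 1.51 and Cox6c at -1.08. Among 36 tRNA synthetases, 14 rose, 3 of them steadily, and 6 fell. Ears2 went from 30.94 and 25.96 to 387.9 and 373.3 (3.70) but overlaps Ubfd1, and Iars2 fell by 0.80.

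Lists of RNA processing and protein turnover differed in direction. None of 51 splicing factors and hnRNPs rose steadily, 9 rose as deposited and 28 fell, with Snrpf at -1.21 and Sf3a3 at -0.81. Of 56 subunits of RNA polymerases, Mediator and general factors, 10 rose, 3 of them steadily, and 20 fell. Mediator subunits moved both ways, with Med14 at 0.99, Med13l at 0.85 and Med4 at -1.18. Of 48 proteasome subunits and regulators, 7 rose, 2 of them steadily, and 25 fell. Both Psme4 and the regulator Psmf1 (0.76) rose, and the core subunit Psmb3 fell by 1.15. Ubiquitin-conjugating enzymes had 15 rises, 2 of them steady, and 8 falls (5 without WT library 2) in 35 genes, with Ube2j1 at 0.76 and Ube2w at 0.90. Of 79 chaperones, 35 rose, 12 of them steadily, and 24 fell, with Hspa1b at 2.36 and Dnajc25 at 2.07. Splicing factors and proteasome subunits are mostly genes with a mean under 1000 (47 of 51 and 39 of 48), a level at which 30.7% of all genes fell.

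Of 40 genes of cytoplasm removal and apoptosis, 14 rose, 7 of them steadily, and 10 fell. The 14 members with a mean of at least 1000 all rose and none of the 26 below did. Lamp1, a lysosomal membrane protein that overlaps Grtp1, rose by 0.85, Map1lc3a, an autophagosome protein, by 0.80, and Cul3, a scaffold of ubiquitin ligases, by 0.76. Of 25 p53 targets, 4 rose, 2 of them steadily, and 10 fell, with Btg2 at 1.07, Sesn2 at -0.98 and Tnfrsf10b at -1.26. Of 13 polyamine and antizyme genes, 6 rose, 3 of them steadily, and 0 fell by limma (0 at an unadjusted p under 0.05, 2 by edgeR with TMM, 0 by DESeq2). Odc1, the first enzyme of polyamine synthesis, went from 11126 and 10978 to 23141 and 22447 (1.04), Satl1 rose by 0.98 and Azin2, an antizyme inhibitor, by 0.73. Oaz3, which represses Odc1, is the member described above that took a smaller share of reads.

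Immediate early and dissociation genes, which many cells switch on within minutes of stress, mostly rose. Of 38 tested, 24 rose, 16 of them steadily, and 5 fell (3 without WT library 2), with a median of 0.71. Egr1 went from 612.3 and 643.1 to 2252 and 2451 (1.90), Atf3 from 101.8 and 108.2 to 405.3 and 414.7 (1.96) and Fosl2 from 33.52 and 14.42 to 213.3 and 205.5 (3.19). Below a mean of 1000, where 17.6% of all genes rose, 17 of 28 rose. In round spermatids 22 of the 38 rose and 1 fell, beside 19.4% and 12.6% of all tested genes. Some round levels were low, with means of 0 in WT and 17.3 in KO-labelled cells for Atf3. Those of Fosl2 were 10.3 and 22.4, whereas those of Egr1 were 87.8 and 139. Of 37 interferon and Schlafen genes, 4 rose, 3 of them steadily, and 14 fell, with Irf1 at 1.23, B2m, the light chain of MHC class I, at -1.26 and Oasl2 at -1.95. B2m overlaps Patl2. Of 35 genes of lipid and seminolipid metabolism, 10 rose, 2 of them steadily, and 11 fell, with Srebf1 at -1.10 and Insig2 at -0.86.

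Gene families defined by name held calls in both directions. Of 43 kinesins, 18 rose, 4 of them steadily, and 8 fell, with Kif20a at -0.97. Of 23 tubulins, 8 rose, 2 of them steadily, and 6 fell, with Tuba1a at -0.96, Tubb5 at -0.83 and Tubd1 at -1.04. Of 43 Rab GTPases, 8 rose, 6 of them steadily, and 9 fell, with Rab27a at 1.39 and Rab22a at 1.08. Of 133 Ccdc genes, 41 rose, 7 of them steadily, and 45 fell, with Ccdc122 at 1.11, Ccdc89 at -1.06 and Ccdc55 at -1.04. Of 28 Spata genes, 12 rose, 6 of them steadily, and 9 fell, with Spata6, a protein of the head and tail junction, at 0.91. Of 29 Tex genes, 6 rose, 3 of them steadily, and 13 fell, with Tex13a at 1.43 and Tex36 at -1.02. The ADAM and PRSS proteases had 13 rises, 4 of them steady, and 21 falls in 55 genes, and Prss39 went from 16579 and 16882 to 44874 and 42713 (1.39).

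Of 274 Zfp zinc finger genes, 52 rose, 23 of them steadily, and 87 fell, with Zfp618 at 1.74, Zfp612 at -1.84 and Zfp386 at -1.51. Of 261 solute carriers, 43 rose, 8 of them steadily, and 77 fell. Replication-dependent histones had 2 rises, both steady, and 4 falls (2 without WT library 1 or KO-labelled library 2) in 13 genes, with Hist3h2a at 1.49 and Hist1h4a at -1.02. Such histone messengers mostly lack a poly A tail, so poly A libraries count them poorly. Multicopy genes of the X and Y chromosomes had 10 rises, 2 of them steady, and 1 fall (0 without WT library 1 or KO-labelled library 1) in 17 genes. Cypt3 rose by 0.90, and reads of such copies are uncertain. RIKEN clones had 405 rises, 140 of them steady, and 314 falls in 1258 genes, and predicted Gm genes 120 rises, 50 of them steady, and 74 falls in 389.

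Markers of other cell types were measured in the same libraries. Of 22 macrophage and leukocyte markers, 18 fell, all of them steadily, and 3 rose, with a median of -1.18. All 22 measured at least 10 in WT. C1qc, a complement subunit made by macrophages, went from 654.9 and 646 to 147.4 and 184.7 (-1.97), Lyz2, lysozyme, from 313.3 and 361.9 to 83.39 and 94.26, and Csf1r, the receptor that macrophages need, from 749 and 777.3 to 323.9 and 318.6. Cd74, the MHC class II chaperone, went from 4792 and 4835 to 2188 and 2040. Aif1, at 14140 and 14116 in WT, rose by 0.95 and Fcgr3, an Fc receptor, rose by 1.73. All 22 markers summed to 33770 and 33624 in WT against 39282 and 39282 in KO-labelled libraries. As a share of reads this was 0.112% and 0.111% against 0.0869% and 0.0886%. Without Aif1 the markers summed to 19629 and 19508 in WT against 11881 and 12060 in KO-labelled libraries. H2-Eb1 among the large falls, and B2m and Oasl2 among the interferon genes, moved with these markers, and the part of leukocyte RNA in them was not tested. In round spermatids 11 of the 22 rose and 0 fell by limma (1 at an unadjusted p under 0.05, 0 by edgeR and DESeq2). Of all tested genes 19.4% rose and 12.6% fell there. Some of these round levels were low, with means of 5.89 in WT and 13.5 in KO-labelled cells for C1qc. Those of Cd74 were 4.01 and 9.52, whereas those of Fcgr3 were 112 and 988.

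Of 27 Sertoli cell markers, 14 fell, all of them steadily, and 0 rose by limma (0 at an unadjusted p under 0.05, 0 by edgeR and DESeq2). Clu went from 3662 and 3736 to 2923 and 2996, and Trf and Gata1 fell by 1.23 and 1.14, while Sox9 stood at -0.05 (adjusted p = 0.90). Summed, the Sertoli markers came to 0.0409% and 0.0412% of WT reads, against 0.0194% and 0.0198% of KO-labelled reads. Of 33 spermatocyte markers, 7 rose, 2 of them steadily, and 16 fell, with Ccna1 at -1.01 and Ccnb2 at -0.98. Of 13 markers of early round spermatids, 2 rose, 1 of them steadily, and 6 fell, with Acrv1, an acrosomal protein, at -0.89. Of 22 spermatogonia markers, 4 rose, 1 of them steadily, and 8 fell, with Sohlh2 at 0.89 and Dmrt1 at -0.48. The lists of earlier germ cells held more falls than rises in the fraction whose 20 late spermatid markers all rose as deposited. Summed shares of reads went from 0.454% and 0.446% in WT to 0.471% and 0.47% in KO-labelled libraries for spermatocyte markers. Such a sum follows the most abundant members and can move against most of the list. Taken gene by gene with total-read scaling, 24 of the 33 spermatocyte markers were called lower and 2 higher. For early round markers the summed shares went from 0.34% and 0.336% to 0.399% and 0.398%. Most of that sum came from 1 member, Hspa1l, which alone went from 0.242% and 0.24% to 0.334% and 0.333%. With total-read scaling 12 of the 13 early round markers were called lower and 1 higher. The summed share of spermatogonia markers went from 0.0193% and 0.0202% to 0.0154% and 0.0144%. All 20 late markers had a mean of at least 1000, whereas 27 of 33 spermatocyte and 21 of 22 spermatogonia markers lay under it. The part of a shift in the cells collected was not tested.

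Of 23 smooth muscle, stromal and vascular markers, 9 rose, 6 of them steadily, and 4 fell (2 without either WT library). The median of the 23 was 0.07, and single members ran from -2.48 to 1.95. With total-read scaling 6 were called higher and 12 lower, with a median of -0.49. Among the rises, Myh11, smooth muscle myosin, went from 399.6 and 344.6 to 1003 and 1069 (1.48). Acta2, smooth muscle actin, rose by 1.06 and Pdgfrb, a receptor of perivascular cells, by 1.95. The summed share of reads of the 23 markers was 0.0821% and 0.0835% in WT against 0.093% and 0.0919% in KO-labelled libraries. Of 8 Leydig cell markers, 2 rose (1 without WT library 2 or KO-labelled library 2), 1 of them steadily, and 0 fell by limma (1 at an unadjusted p under 0.05, 1 by edgeR and DESeq2, 1 without KO-labelled library 1). Star, the carrier of cholesterol into Leydig cell mitochondria, measured 33.52 and 18.75 in WT against 46.55 and 43.36 in KO-labelled libraries (adjusted p = 0.067, and 0.028 without WT library 1). Only 1 red blood cell marker was tested, with no call by limma or DESeq2 and a fall by edgeR. Of 2 epididymal markers, 1 rose and 1 fell, with Cst8, which spermatids also express, at 0.39 as deposited and -0.18 with total-read scaling.

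The elongating effect overlapped in part with that in round spermatids, where 3041 genes rose (19.4%) and 1977 fell (12.6%). Of the 4279 elongating rises, 1911 rose and 344 fell in round cells. Of the 4348 elongating falls, 997 fell and 425 rose in round cells, and 2926 were not called. Of the 749 steady rises over 2-fold, 494 (66%) rose and 8 fell in round cells. Of the 1038 steady falls over 2-fold, 313 (30.2%) fell and 28 rose. The WT and KO-labelled libraries of the stages are separate samples. Across the 15685 genes, Pearson's r between the fold changes was 0.52 and Spearman's rank correlation 0.395, a description over genes that share libraries and a fit.

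The effect differed between stages for 5781 genes (36.9%), by limma's test of the difference itself. Of these, 769 were called in opposite directions as deposited, 344 rising and 425 falling in elongating cells. Opposite calls were not counted under the other scalings. In 673 of the 769 a group mean reached 100 at both stages. Rab23, a small GTPase of membrane traffic, went from 149.5 and 141.3 to 323.9 and 299.7 in elongating cells, whereas its round means were 166 in WT and 70 in KO-labelled cells. Gdpd5, a phosphodiesterase, went from 158.6 and 175.9 to 911.5 and 955.8, against round means of 181 and 126. Itga1, an integrin chain that overlaps Pelo, rose by 0.76 in elongating and fell by 1.23 in round cells. Gtpbp2 and Cyth3 rose by 1.09 and 1.18 and fell by 0.33 and 0.22 in round cells. Acap1 and Kif13a rose as deposited by 0.48 and 0.53, but stood at -0.08 and -0.02 with total-read scaling. Acap1 lost its call without any one elongating library other than WT library 2 and without either round WT library (0.27, adjusted p = 0.28, without WT library 1), and Kif13a without KO-labelled library 2 or WT library 2 (adjusted p of 0.077 and 0.095).

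In the opposite class, falling in elongating and rising in round cells, Rps14 went from a mean of 2043 to 876 and, in round cells, from 1216 to 1721. Spaca3 fell by 1.23 and rose by 0.46 in round cells. Rpl22l1, a ribosomal protein paralogue, fell by 1.24, 1700003H04Rik by 1.05, Naf1, an assembly factor of small nucleolar particles, by 0.93, Lypla2, a depalmitoylating enzyme, by 0.79, Lgmn, a lysosomal protease, by 0.56 and Arpc5, a subunit that branches actin filaments, by 0.35. In round cells these genes rose by 0.37 to 1.30. Arpc5 lost its elongating call without KO-labelled library 1 or WT library 1 (adjusted p of 0.074 and 0.06). Elongating and round libraries differ in reads per unit of value, and the elongating contrast fitted on its own 4 libraries called 4135 rises and 3688 falls.

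**Figure D5:**
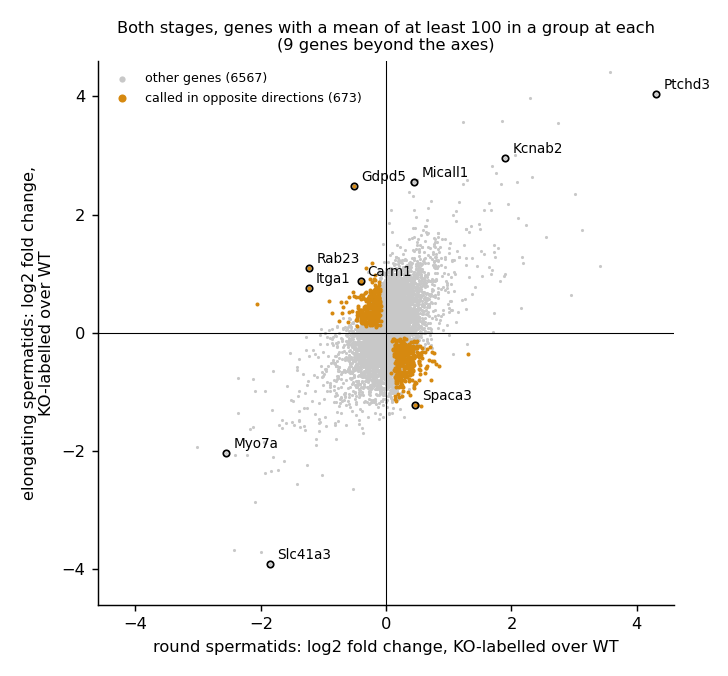
Log2 fold change of KO-labelled over WT in elongating (vertical axis) against round spermatids (horizontal axis), 1 point per gene with a group mean of at least 100 at each stage (7240 genes). Ptchd3, Kcnab2, Slc41a3 and Myo7a lie far out in the same direction at both stages, and the 673 genes called in opposite directions (orange) lie mostly close to the centre, with Gdpd5, Rab23 and Itga1 farther out.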

How the data were processed

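The authors deposited 1 table, with a normalized signal (reads over a size factor) for each gene in each library. Its values are whole multiples of 1 step per library (100% at a tolerance of 0.000001), so counts of reads were recovered as value times size factor. Per the submitters' processing notes, the tools were DESeq 1.16.0, HTSeq 0.6.0, TopHat2 2.0.10 and CASAVA 1.8.2, and the builds GRCm38 and mm10. Their roles, the annotation and the strand setting are not stated in the labels.

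The values were tested as log2(value + 1) with limma 3.58.1 (R 4.3.3, empirical Bayes with trend), 4 group means and 4 residual degrees of freedom, two-sided, Benjamini-Hochberg adjusted over the 15685 genes, called at 0.05. The script was tested on simulated data. Alternatives were other scalings, a pseudocount of 10, no filter, a fit on 4 libraries, no trend, a replicate block, libraries left out, and edgeR 4.0.16 and DESeq2 1.42.0 on recovered counts. The libraries of a group differed by more than sampling noise (chi-square per gene of 1.37 to 2.314), so each counted once.

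Named genes are Carm1, the 12 largest steady rises and falls with a mean of at least 1000, the 8 largest steady rises and falls in value, the 12 genes with the most reads, up to 3 called members per list with a mean of at least 100, and 8 genes each way called oppositely between stages. The members, this rule and the 56 gene lists were chosen with earlier results of these data known, and 3 name patterns were tightened after the table was read. Lists share genes, and list counts carry no test. Symbols were matched to GENCODE M21 for positions, 15724 by name and 486 through RefSeq, and 139 were not matched. Intervals of read ratios are exact (Clopper-Pearson, 95%). Further list members were named for their known role after values were seen. Some results on withheld items are not reported here.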

Additional observations from a re-analysis of the deposited data

Results flagged for a closer look

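The difference between the elongating and the round knockout effect passed limma's test for 5781 genes. Among genes called in opposite directions at the stages and with a group mean of at least 100 at each stage, the difference (elongating minus round, log2) was largest upward for Gdpd5 at 2.99, Acap1 at 2.54, Rab23 at 2.33, Itga1 at 1.99, Kif13a at 1.44, Gtpbp2 at 1.42, Cyth3 at 1.40 and Carm1 at 1.28. Downward it was largest for Rpl22l1 at -1.80, Rps14 at -1.72, Spaca3 at -1.69, Arpc5 at -1.66, Lypla2 at -1.51, 1700003H04Rik at -1.42, Lgmn at -1.40 and Naf1 at -1.37. Groups of 2 libraries are too small for a check of single outlying libraries.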

How the results depend on the processing

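The count of rises depended on scaling: 4279 as deposited, 1394 with total-read scaling and 1645 when the 50 top genes were left out of the library size, where falls came to 9854 and 9308 against 4348. DESeq2 gave 2760 falls. Stage differences came to 7929 with total-read scaling and 7470 without the top 50, against 5781 as deposited. Leaving out 1 library at a time gave 3893 to 4206 rises, 3476 to 4304 falls and 4655 to 6201 stage differences. Scalings change only the reference level, and the cause of the DESeq2 count was not tested. Of 224 named genes, 200 kept direction and call in all 19 alternatives. Reversed with total-read scaling and without the top 50 were Cst8 (-0.18, -0.12), Oaz3 (-0.18, -0.12), H1fnt (-0.26, -0.20), Cabyr (-0.27, -0.21), Gpx4 (-0.41, -0.35), Hils1 (-0.41, -0.35), Scarb1 (-0.41, -0.35), Ldhc (-0.45, -0.39) and Acap1 (-0.08, -0.02), and with total-read scaling only Hk1 (-0.00) and Kif13a (-0.02). The replicate numbers are shared labels only: deviations of same-numbered libraries correlated at -0.0148 to 0.0312. With 1 library left out, the lone library of a group is assumed to vary like the others. A replicate block gave 4251 rises, 4332 falls and 5718 stage differences. Genes under 10 units rest on few reads, and 182 of 839 of them were called lower and 65 higher.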

Other observations

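Of 630 tested genes on the X chromosome, 18.3% fell and 26% rose, beside 27.7% and 27.3% of all tested genes, with no test of that difference. The neighbours Aldh1l1 and Slc41a3, both lower at both stages, have 4521 bases between their annotated ends.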
